A study of Mus musculus with 6 samples.

Results

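10 genes of procollagen maturation were followed in chondrocytes of the hindlimb growth plate, the cartilage in which long bones elongate, of Lkb1 mutant and control mice. They were chosen by function: the collagen prolyl 4-hydroxylase subunits P4ha1, P4ha2, P4ha3 and P4hb, the lysyl hydroxylases Plod1, Plod2 and Plod3, the procollagen chaperone Serpinh1, the prolyl 3-hydroxylation cofactor Crtap, and Pcolce, which speeds the cleavage of secreted procollagen. All 10 of 10 had 1 probe set annotated to a single gene and were measured, out of 19939 genes with such a probe set, and all 10 were among the 17020 genes tested after dim probe sets were left out. The samples were 3 arrays from mice with a conditional mutation of Lkb1, the older name of the kinase gene Stk11, and 3 arrays from control mice. RNA of both groups came from the growth plates of femurs and tibiae at postnatal day 30, on a mixed FVB, 129S6 and C57CL/6 background as the labels spell it. Which Cre line drove the mutation, what alleles the controls carried, and whether animals were pooled or littermates is information that the sources used here do not give. The labels call the replicates biological without naming separate animals, so a p-value reflects only how much these samples vary, which may be technical.

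Collagen chains are modified inside the endoplasmic reticulum before they fold into a triple helix. Prolyl 4-hydroxylase, a tetramer of catalytic alpha subunits and the beta subunit P4hb, makes the 4-hydroxyproline that keeps the helix stable at body temperature. Lysyl hydroxylases prepare lysines for sugar attachment and crosslinks, the chaperone encoded by Serpinh1 holds the folded helix until it leaves the compartment, and after secretion the propeptides are cut off so that fibrils can form. Growth plate chondrocytes secrete large amounts of type II and, when hypertrophic, type X collagen, and the hydroxylases need oxygen, which is scarce in the centre of the growth plate.

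9 of these genes did not pass the test between mutant and control, and Pcolce rose. Levels are log2(intensity + 1) of the authors' deposited array intensities, a difference is mutant minus control on that scale, and a gene is called at an adjusted p below 0.05 in limma, a linear model fitted to all 17020 genes. By this rule 1 of the 10 genes was called, higher in the mutants, while the rule called 14.7% of all genes tested, 7.84% higher and 6.82% lower. The median difference was 0.07 over the 10 genes and 0.03 over all genes tested. The arrays of the 2 groups did not overlap for 2 of the 10 genes, Pcolce and Plod3, against 36.7% of all genes tested (20% higher and 16.7% lower in the mutants). All 10 transcripts were bright, with levels of 8.73 to 11.89 on single arrays. The 95% points of 1035 probe sets of olfactory receptor genes, which serve as a background here, were 6.40 to 6.73.

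**Figure D1:**
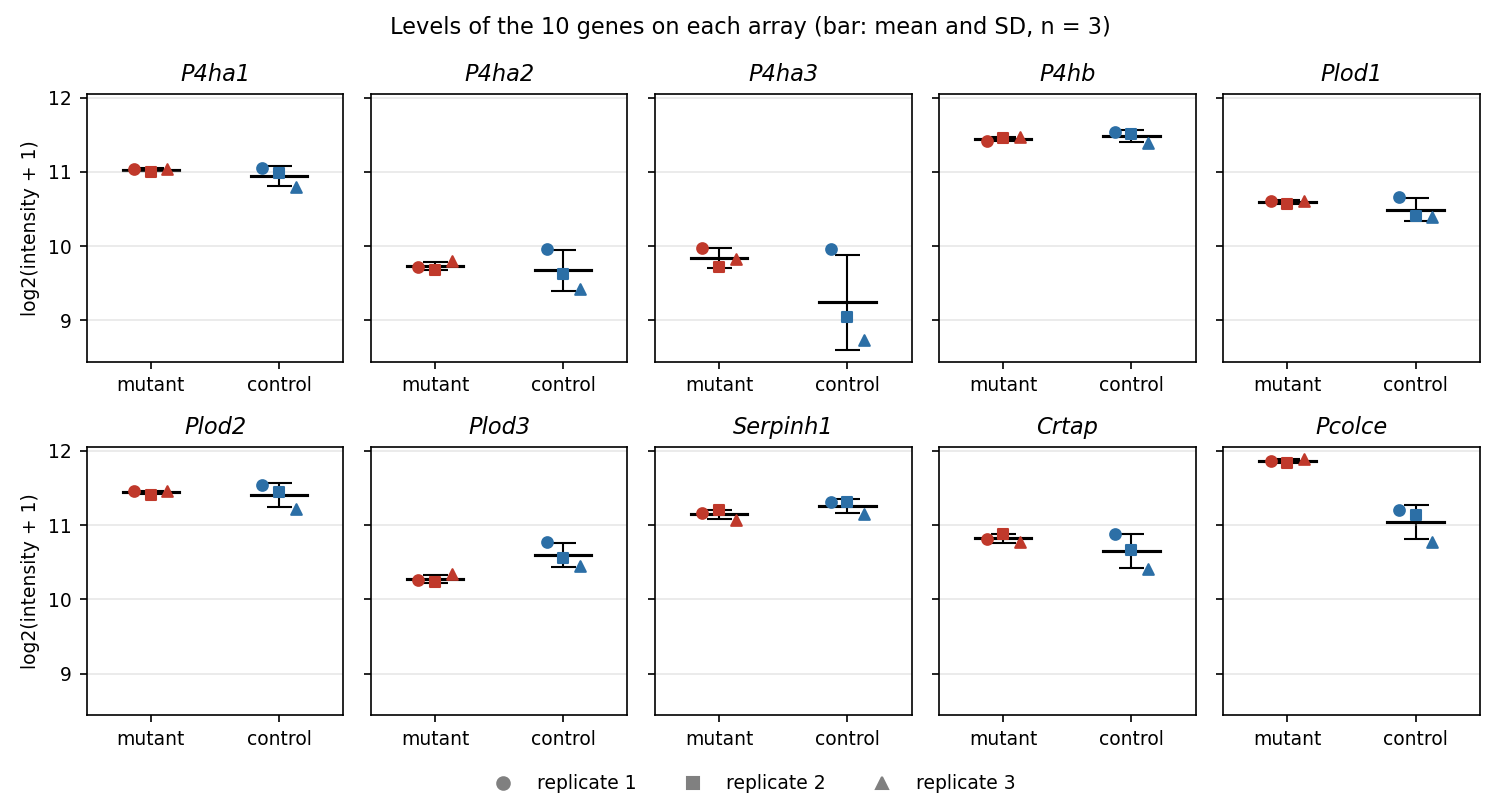
Level of each of the 10 genes on every array, in log2(intensity + 1), with mutant arrays left and control arrays right in each panel; markers show the replicate number, and bars the mean and SD of 3 arrays. Pcolce is the gene whose mutant arrays (11.84 to 11.89) all lie above its control arrays (10.78 to 11.21), and Plod3 the one whose mutant arrays (10.23 to 10.34) all lie below them (10.45 to 10.77).

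Cartilage transcripts were bright on every array, while blood cell transcripts differed between the groups and among the controls. Stk11, the targeted gene, was at 7.39 to 7.52 in mutants and 8.68 to 9.67 in controls, and where its probes lie relative to the mutated part was not analysed here. Of 10 chondrocyte markers 1 was higher and 9 were not called, with a summed intensity of 34140 to 36170 in mutants and 33400 to 37050 in controls. Of 25 erythroid, neutrophil and B lymphoid markers 21 were lower in the mutants and none was higher, with a summed intensity of 3028 to 5047 in mutants and 16080 to 38010 in controls. Most of them exceeded the background on 0 mutant arrays. Some, such as Rhag (mean 4.14 in mutants and 8.51 in controls), passed the filter for dim probe sets only through the controls and so could only be called lower. The mean level of the 25 markers was 6.35, 6.35 and 6.10 in mutant replicates 1, 2 and 3, and 8.63, 9.36 and 10.05 in control replicates 1, 2 and 3. Markers of fibrous tissue and tendon (6 of 10 higher, summed intensity 15740 to 16090 in mutants and 10720 to 12190 in controls), of endothelium (5 of 8 higher, 1219 to 1500 in mutants and 713.7 to 901.4 in controls) and of macrophages (7 of 7 higher, 2476 to 3539 in mutants and 1419 to 1708 in controls) differed too. Of all genes tested 7.84% were called higher and 6.82% lower. The endothelial marker Kdr (mean 6.44 in mutants and 5.54 in controls) passed the filter only through the mutants and so could only be called higher. Kdr exceeded the background on 1 mutant and 0 control arrays, and Tie1, another of the 5, on 2 mutant and 0 control arrays. Of 5 osteoblast markers 1, Phex, was lower in the mutants (above background on 0 mutant and 3 control arrays), with a summed intensity of 6462 to 7275 in mutants and 6327 to 7313 in controls. No marker was listed at 0 on any array. In such bulk RNA, fewer cells of a type and less RNA per cell cannot be told apart.

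The prolyl 4-hydroxylase and lysyl hydroxylase genes include known targets of the hypoxia-inducible factors, whose binding sites share a core of A or G followed by CGTG. Only the ACGTG form of that core was searched, so a gene without a match here can still hold GCGTG, as the windows of Plod1 and Crtap do. RefSeq promoter windows of build GRCm38.p6 were matched by symbol for 9 of the 10 genes, Plod2 having no window in the table used. The 250 bases before the start site were searched for ACGTG on both strands (ACGTG or CACGT as written, counted per window, with no other motif searched), and 5 of the 9 genes held a match, against 16.6% of 32851 windows. The matches began 78 bases before the start in P4ha2, 56 in P4hb, 54 in Plod3, 171 in Serpinh1 and 16 in P4ha1. A match is a description of letters and not a measured binding site. Below are the 4 promoters with a match upstream of every annotated start of the gene, with the match in capitals, and then the promoters of P4ha3 and Pcolce, which had no match and the widest differences of the 10 genes. Of P4ha3 and Pcolce 219 and 132 bases are shown, since another annotated start of each gene lies further upstream.
P4ha2 promoter (chr11:54100674-54100923, plus strand): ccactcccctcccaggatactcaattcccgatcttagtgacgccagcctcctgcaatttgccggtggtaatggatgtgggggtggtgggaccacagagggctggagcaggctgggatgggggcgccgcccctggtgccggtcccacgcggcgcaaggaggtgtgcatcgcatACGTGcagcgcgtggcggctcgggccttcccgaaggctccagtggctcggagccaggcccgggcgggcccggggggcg
P4hb promoter (chr11:120573254-120573503, minus strand): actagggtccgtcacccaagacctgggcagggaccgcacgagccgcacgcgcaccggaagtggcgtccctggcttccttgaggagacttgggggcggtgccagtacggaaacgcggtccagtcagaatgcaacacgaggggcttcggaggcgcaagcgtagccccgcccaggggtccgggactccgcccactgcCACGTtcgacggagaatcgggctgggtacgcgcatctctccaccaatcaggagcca
Plod3 promoter (chr5:136986769-136987018, plus strand): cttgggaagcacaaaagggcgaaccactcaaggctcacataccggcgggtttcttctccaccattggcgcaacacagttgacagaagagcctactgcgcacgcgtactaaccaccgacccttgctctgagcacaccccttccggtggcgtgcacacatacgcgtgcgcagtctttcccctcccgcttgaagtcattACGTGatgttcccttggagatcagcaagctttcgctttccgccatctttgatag
Serpinh1 promoter (chr7:99353240-99353489, minus strand): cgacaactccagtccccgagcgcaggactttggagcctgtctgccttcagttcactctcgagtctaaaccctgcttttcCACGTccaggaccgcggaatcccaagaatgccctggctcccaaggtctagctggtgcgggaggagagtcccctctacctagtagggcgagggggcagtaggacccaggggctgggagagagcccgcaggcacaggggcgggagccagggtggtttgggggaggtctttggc
P4ha3 promoter (chr7:100285270-100285488, plus strand): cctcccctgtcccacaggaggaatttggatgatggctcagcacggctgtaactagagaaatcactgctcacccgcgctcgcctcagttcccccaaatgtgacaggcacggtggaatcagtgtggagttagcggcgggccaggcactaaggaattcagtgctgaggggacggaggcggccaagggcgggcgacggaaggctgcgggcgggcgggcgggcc
Pcolce promoter (chr5:137611523-137611654, minus strand): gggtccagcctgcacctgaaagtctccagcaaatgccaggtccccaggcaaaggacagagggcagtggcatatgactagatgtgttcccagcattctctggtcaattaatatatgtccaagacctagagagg
None of the 5 genes with a match was called between mutant and control, beside 14.7% called of all genes tested. The gene that was called, Pcolce, had no match in its window. With so few genes, whether a match goes with a difference was not tested.

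P4ha1, P4ha2 and P4ha3 encode the catalytic alpha subunits, of which each prolyl 4-hydroxylase tetramer carries copies of 1 kind. P4ha1, the most widely used alpha subunit, was at 11.04, 11.00 and 11.04 in mutant replicates 1, 2 and 3, and at 11.06, 10.98 and 10.80 in control replicates 1, 2 and 3. Mutant and control levels overlapped, and the difference was 0.08 (95% interval -0.14 to 0.30, adjusted p = 0.629 in limma). P4ha2, an alpha subunit associated with chondrocytes and osteoblasts, was at 9.72, 9.68 and 9.80 in mutants, against 9.97, 9.63 and 9.42 in controls. Its mutant values lay within the range of the controls, with a difference of 0.06 (interval -0.27 to 0.39, adjusted p = 0.817).

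P4ha3 had the widest spread of the 10 genes. It was at 9.98, 9.71 and 9.82 in mutants, and at 9.96, 9.04 and 8.73 in controls, so that control replicate 1 stood level with the mutants while control replicates 2 and 3 were lower. The difference of 0.60 had an SE of 0.28 (interval -0.07 to 1.26, n = 3 per group) and was not called, with an adjusted p of 0.213. The value rested on single control arrays. It was 0.95 and called without control replicate 1 (adjusted p = 0.00369) and -0.12 without control replicates 2 and 3 (adjusted p = 0.609), a setting chosen after the data were seen in which the lone control is assumed to vary like the mutants. Control replicates 2 and 3 were also the controls with more of the blood lineage markers, whose part in this spread was not tested.

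P4hb encodes protein disulfide isomerase, which forms disulfide bonds in many secreted proteins and is also the beta subunit of prolyl 4-hydroxylase. It was at 11.41, 11.45 and 11.46 in mutants, against 11.54, 11.51 and 11.39 in controls, a difference of -0.04 (interval -0.24 to 0.16, adjusted p = 0.803). In fold terms the interval ran from 0.85 to 1.12, and the mutants lay inside the range of the controls.

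Among the lysyl hydroxylases, Plod1 and Plod2 overlapped between the groups, and all 3 mutant arrays were below all 3 control arrays for Plod3. Plod1, which hydroxylates lysines of the triple helix, was at 10.61, 10.56 and 10.61 in mutants and 10.67, 10.41 and 10.39 in controls (difference 0.11, interval -0.13 to 0.34, adjusted p = 0.548). Plod2, which acts on the telopeptide lysines used for stable crosslinks, was at 11.45, 11.41 and 11.45 in mutants and 11.54, 11.44 and 11.22 in controls (difference 0.04, interval -0.21 to 0.28, adjusted p = 0.850). Plod3, which also attaches galactose and glucose to hydroxylysine, was at 10.26, 10.23 and 10.34 in mutants and 10.77, 10.56 and 10.45 in controls. Its difference was -0.32 (SE 0.11, interval -0.56 to -0.07), 0.80-fold, and with an adjusted p of 0.0911 in limma it was not called. It was called without control replicate 3 (-0.39, adjusted p = 0.0444) and, chosen after the data were seen, without control replicates 2 and 3 (-0.49, adjusted p = 0.0402), and its adjusted p reached 0.245 when other single arrays were left out.

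Serpinh1 encodes HSP47, a chaperone that binds only collagens and carries a retrieval signal for the endoplasmic reticulum. Its level was 11.16, 11.20 and 11.07 in mutants, against 11.32, 11.31 and 11.15 in controls, with a difference of -0.11 (interval -0.33 to 0.10, adjusted p = 0.471). Crtap, named for its discovery in cartilage, is the noncatalytic partner of the prolyl 3-hydroxylase P3h1 and of the isomerase Ppib, and its loss causes recessive brittle bone disease in people. It was at 10.82, 10.88 and 10.77 in mutants and 10.88, 10.66 and 10.41 in controls (difference 0.17, interval -0.12 to 0.47, adjusted p = 0.424). For both genes mutant and control arrays overlapped. The Crtap partners P3h1 and Ppib differed by -0.19 (adjusted p = 0.414) and 0.02 (adjusted p = 0.915).

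Pcolce, the secreted enhancer of procollagen C-proteinase, rose in the mutants. It was at 11.87, 11.84 and 11.89 in mutants, against 11.21, 11.14 and 10.78 in controls. The difference of 0.82 (SE 0.13, interval 0.53 to 1.12, n = 3 per group) was 1.77-fold, with an adjusted p of 0.00613 in limma. It was called under each of 17 alternative settings, with values of 0.69 to 0.91 when single arrays were left out and 0.66 without control replicates 2 and 3. The paralog Pcolce2 differed by -0.16 (adjusted p = 0.407), and Bmp1, the C-proteinase that these proteins enhance, by 0.16 (adjusted p = 0.419). Pcolce is also a gene of fibrous connective tissue, whose markers were higher in the mutants by the counts and sums given above, with Tnmd, the tendon gene tenomodulin, at 2.38 and Pdgfra, a fibroblast receptor, at 0.98. Tnmd exceeded the background on 3 mutant arrays and on 1 of 3 control arrays, so its difference is set against controls mostly at background. The part of that tissue in the Pcolce difference was not tested.

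The 95% interval lay within a 1.5-fold change either way for 8 of 10 genes, all but Pcolce and P4ha3, a share near the 70.1% of all genes tested. That of P4ha3 ran from 0.95-fold to 2.39-fold. The SD among mutants was smaller than that among controls for 10 of 10 genes (0.02 to 0.13 in mutants, 0.08 to 0.64 in controls), as it was for 71% of all genes tested. Control replicate 1 had the highest and control replicate 3 the lowest level of the controls in 10 of 10 genes, an order found in 21.4% of all genes tested, by margins of 0.14 to 1.23. Control replicate 1 also had the lowest and control replicate 3 the highest level of blood lineage markers. Set against control replicate 1 alone, 9 of 10 genes had a difference below 0 and Pcolce one above 0, whereas in the fit of all arrays 7 were above 0 and 3 below. The part of the blood lineage RNA in these differences was not tested.

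**Figure D2:**
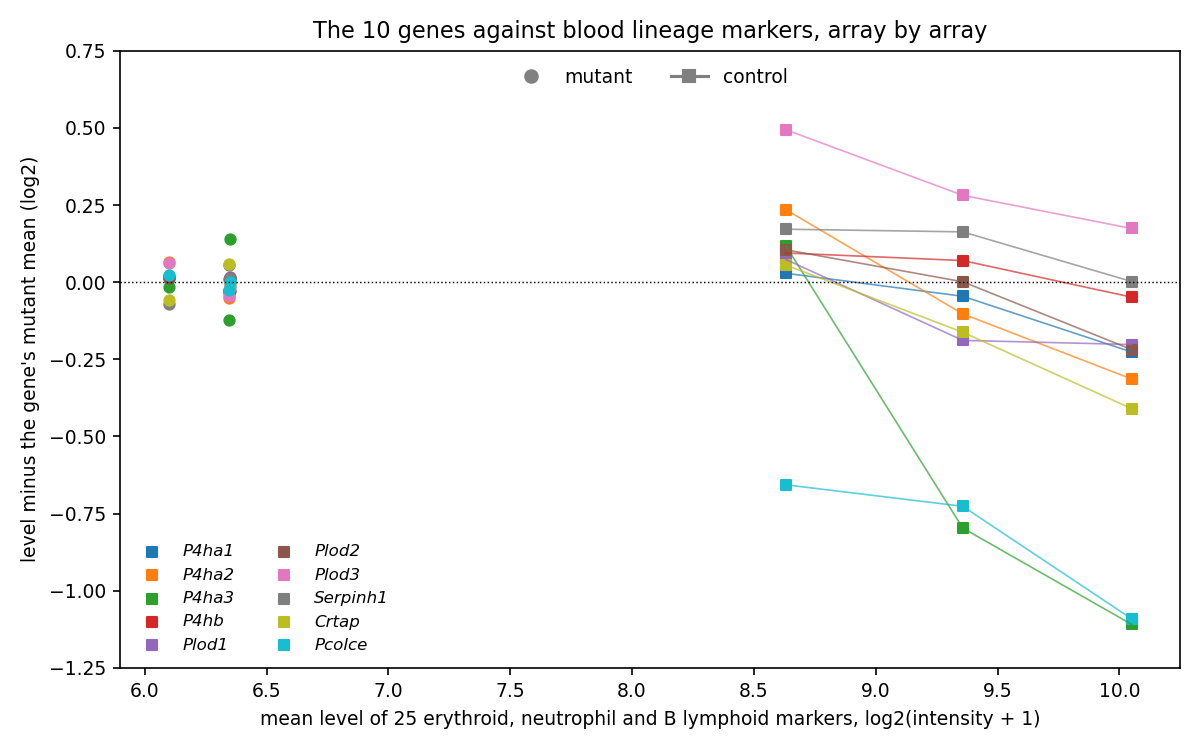
Level of each of the 10 genes minus its own mutant mean (vertical, log2) against the mean level of 25 erythroid, neutrophil and B lymphoid markers on the same array (horizontal, log2(intensity + 1)); circles are mutant arrays, squares control arrays, and lines join the controls of a gene. The mutants lie at marker levels of 6.10 to 6.35 and the controls at 8.63 to 10.05, and on each line the control array with the most marker signal is the lowest.

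Ratios between isoenzymes were taken on each array. Each ratio is given as its distance from its own mean over 6 arrays, since levels of different probe sets cannot be compared. The Plod3 to Plod1 ratio was at -0.24, -0.22 and -0.17 in mutants, against 0.21, 0.26 and 0.16 in controls, a difference of -0.42. The Plod3 to Plod2 ratio was at -0.21, -0.19 and -0.13 in mutants, against 0.21, 0.10 and 0.22 in controls, a difference of -0.35. In both ratios the mutants were below every control. Both ratios hold Plod3, whose own levels did not overlap between the groups and which was not called, so they are not separate results. The share of ratios of other gene pairs without overlap was not computed. Among single genes tested it was 36.7%. The P4ha3 to P4ha2 ratio was at 0.42, 0.20 and 0.19 in mutants, against 0.15, -0.43 and -0.53 in controls, a difference of 0.54. Its mutants were above every control, but control replicate 1 lay close below them, and control replicates 2 and 3 far below. The other 3 of 6 ratios overlapped between the groups. For the 3 ratios without overlap the two-sided exact permutation p was 0.1, the smallest that 3 against 3 arrays allow, and 0.2 after adjustment over the 6 pairs. None passed the threshold, since a permutation p cannot go below 0.1 here, and the ratios were put to no other test. For P4ha2 to P4ha1 the difference was -0.02 (exact permutation p = 1), and for Plod2 to Plod1 it was -0.07 (exact permutation p = 0.4).

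**Figure D3:**
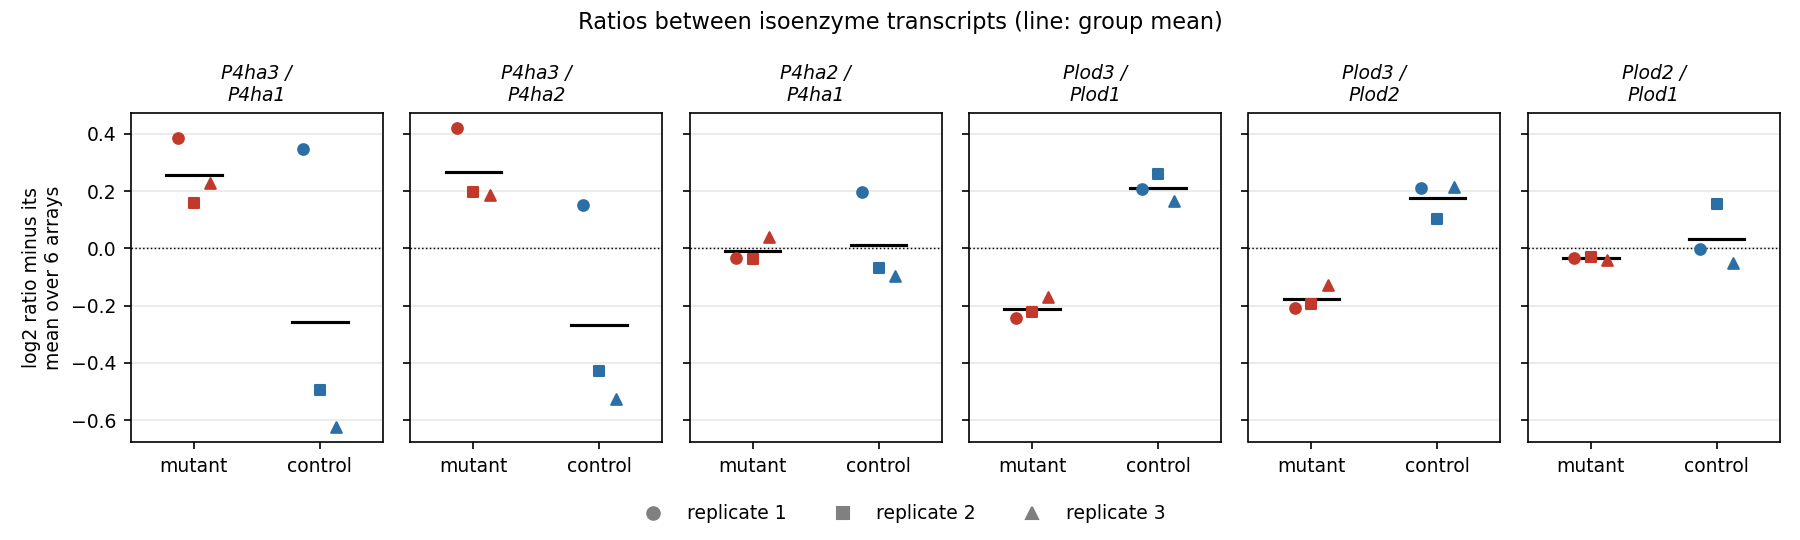
Log2 ratio between isoenzyme transcripts on each array, minus its mean over the 6 arrays, with mutants left and controls right; markers show the replicate number and lines the group mean. Plod3 relative to Plod1 lies at -0.24 to -0.17 in mutants and 0.16 to 0.26 in controls, and in P4ha3 relative to P4ha1 control replicate 1, at 0.35, lies among the mutants.

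Other genes of the same pathway were counted beside the 14.7% called of all genes tested. Of 12 further modification and folding genes that were tested, 3 rose and none fell (median difference 0.08). Fkbp7, a prolyl isomerase of the endoplasmic reticulum, rose by 0.95 (SE 0.15, adjusted p = 0.00694), and P3h3, a member of the prolyl 3-hydroxylase family, by 0.51 (SE 0.13, adjusted p = 0.0337). P4htm, a membrane-bound prolyl 4-hydroxylase that does not act on collagen, rose by 0.36 (adjusted p = 0.0276) but exceeded the background on 1 mutant array and 0 control arrays. The call of P3h3 was lost without control replicate 2 (adjusted p = 0.0953) and without each single mutant array, where its adjusted p was 0.0893 to 0.134. That of P4htm was lost in the same 4 settings, with an adjusted p of 0.0761 to 0.136. Median centring of the arrays also ended the calls of P3h3 and P4htm (adjusted p = 0.0600 and 0.0510 in limma). So did the replicate number as a block (adjusted p = 0.0647 and 0.0663 in limma). Scaling to the chondrocyte markers ended that of P4htm (adjusted p = 0.158 in limma). Of 16 genes of procollagen export and propeptide cleavage, 1 rose and 1 fell (median difference 0.06). Adamts3, a protease that removes the amino-propeptide of procollagen, rose by 0.71 (SE 0.14, adjusted p = 0.0167). That call was lost when mutant replicate 2 was left out (adjusted p = 0.0674) and when mutant replicate 3 was (adjusted p = 0.0669). Mia2, which helps load large cargo at the exit sites of the endoplasmic reticulum, fell by 0.56 (adjusted p = 0.0101) at levels that exceeded the background on 0 arrays of either group, and it missed the threshold when mutant replicate 3 was left out (adjusted p = 0.0538). With a mean of 5.43 in mutants and 6.00 in controls, Mia2 passed the filter for dim probe sets only through the controls. It could thus only be called lower.

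The collagen chains, the substrates of these enzymes, included larger differences. Of 19 chains 6 rose and 1 fell, with a median difference of 0.04. Col1a1, a chain of the main collagen of bone and fibrous tissue, was at 11.82, 11.83 and 11.96 in mutants and 10.16, 10.09 and 9.62 in controls, 3.77-fold higher (difference 1.91, SE 0.15, adjusted p = 0.00052). Col3a1 rose by 1.73 (SE 0.19, adjusted p = 0.00184), Col5a2 by 1.26 (SE 0.17, adjusted p = 0.00356) and Col5a1 by 1.19 (SE 0.16, adjusted p = 0.00397), all chains of fibrils found together with type I collagen. Col10a1, which hypertrophic chondrocytes secrete, fell by 0.50 (adjusted p = 0.0114). Col2a1, the main chain of cartilage, differed by 0.04 (adjusted p = 0.776). Col1a1 had the largest chain difference, 1.91, and 12 of the 19 chains were not called. The differences of P4ha1, P4ha2, P4hb and Plod1 were 0.08, 0.06, -0.04 and 0.11. Those of Plod2, Serpinh1 and Crtap were 0.04, -0.11 and 0.17. Those of Pcolce, P4ha3 and Plod3 were 0.82, 0.60 and -0.32. The median difference of the 10 genes was 0.07, against 0.04 for the chains. Col3a1 is also among the fibrous tissue markers counted above, and the part of that tissue in the chain differences was not tested. Whether the chains as a list differed from the enzymes was not tested.

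**Figure D4:**
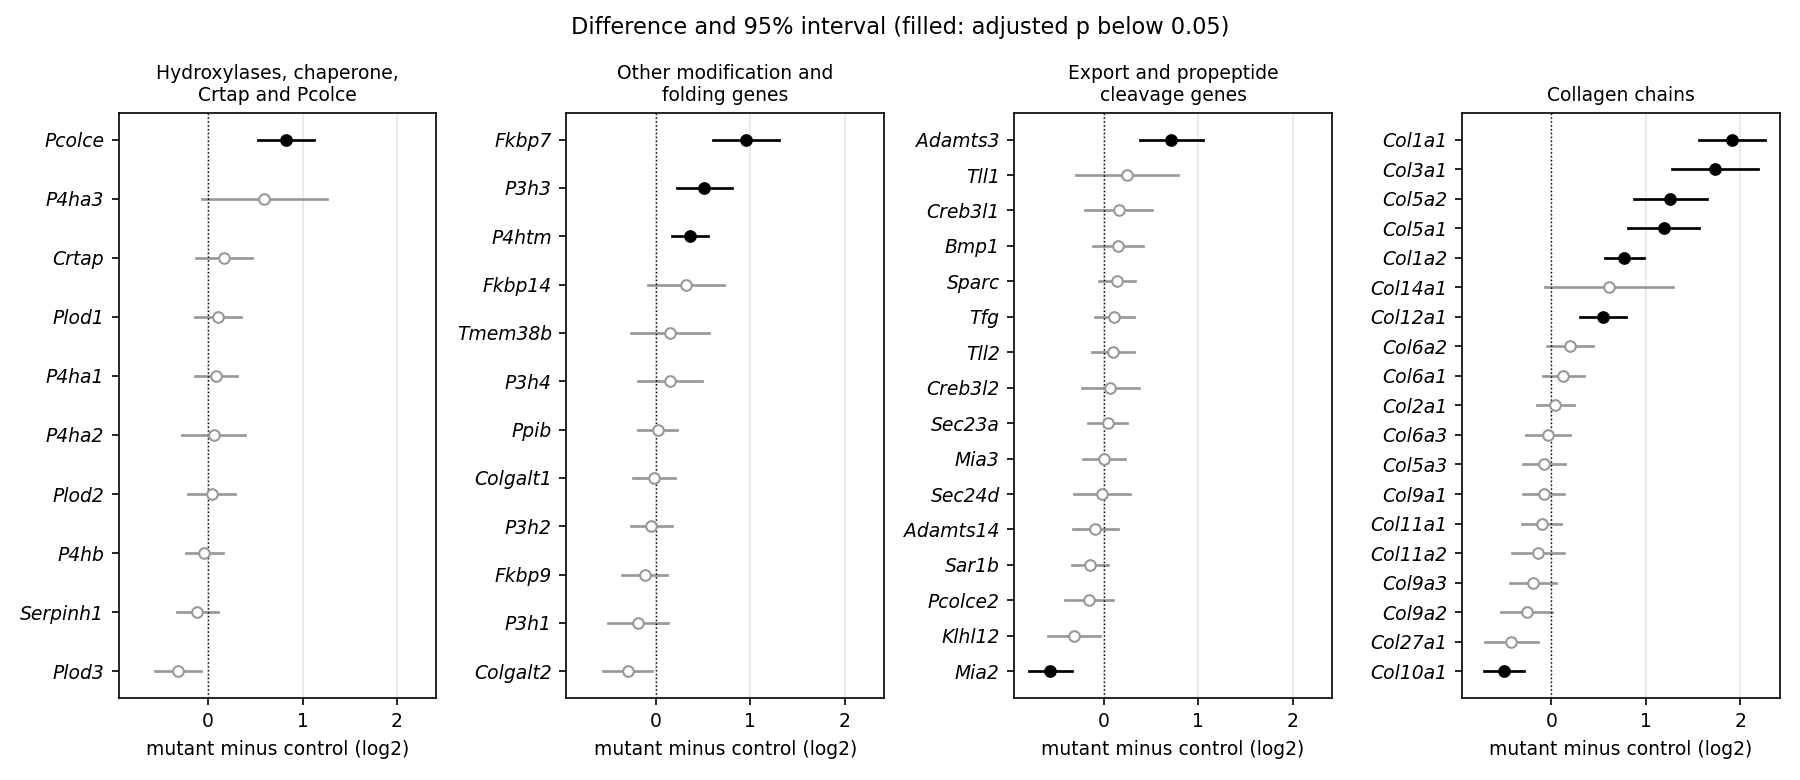
Mutant minus control difference on the log2 scale with its 95% interval (limma, 3 arrays per group) for the 10 genes, for other genes of procollagen modification and folding, for genes of export and propeptide cleavage, and for collagen chains; filled points have an adjusted p below 0.05. In the first panel the filled point is Pcolce at 0.82, and in the last Col1a1 lies at 1.91 and Col10a1 at -0.50.

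Lists that share regulation with the hydroxylases were counted in the same fit, which called 14.7% of all genes tested, 7.84% higher and 6.82% lower. Of 19 hypoxia-induced genes 3 rose and none fell (median difference 0.11), a share called near that of all genes tested. Egln3 (0.97, adjusted p = 0.0212) and Egln1 (0.81, adjusted p = 0.0107), which encode the oxygen-sensing hydroxylases of hypoxia-inducible factors, and Car9 (0.82, adjusted p = 0.0478), a carbonic anhydrase, made up the 3. Car9 exceeded the background on 1 mutant array and 0 control arrays, and its call ended without mutant replicates 2 or 3 and without any single control, with an adjusted p of up to 0.108. Without mutant replicate 1, its highest array, the Car9 difference was 0.54 (adjusted p = 0.0373). The Car9 call was also lost without the filter (adjusted p = 0.0568 in limma), with a pseudocount of 16 (0.0527) and with the replicate block (0.0614). The Egln3 call ended without any single mutant array and without control replicate 2 (adjusted p of up to 0.0873), and that of Egln1 without mutant replicate 3 (adjusted p = 0.0522). P4ha1, P4ha2 and Plod2, which hypoxia also induces in many cells, were not called. Of 18 general folding genes of the endoplasmic reticulum none rose and 4 fell (median difference -0.09). These were the chaperones Hyou1 (-0.48, adjusted p = 0.0184) and Sdf2l1 (-0.51, adjusted p = 0.0210), the secreted stress protein Manf (-0.41, adjusted p = 0.0222) and the stress transcription factor Ddit3 (-0.47, adjusted p = 0.0265). All 4 calls ended without mutant replicate 2 and without control replicate 2, where the adjusted p was 0.0653 to 0.102. Those of Hyou1, Manf and Ddit3 also ended without mutant replicate 1 (adjusted p of up to 0.101 in limma). Without mutant replicate 3 those of Sdf2l1, Manf and Ddit3 ended (adjusted p of up to 0.084 in limma). With the replicate block those of Manf and Ddit3 ended (adjusted p = 0.0550 and 0.0600 in limma). Hspa5, the main chaperone of that compartment, differed by -0.0093 (adjusted p = 0.956), and Pdia3, a relative of P4hb, by 0.03 (adjusted p = 0.858).

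The genes whose pattern over the 6 arrays was most like that of a member, by Pearson's r among all genes tested, were Sar1a, Dlg4 and Cpxm2 for Pcolce (r = 0.999 for each), Nt5c3b, Ergic1 and Dbi for P4ha3 (0.992 to 0.994), and Ing3, Plekhg1 and Inpp1 for Plod3 (0.993 to 0.996). For Serpinh1 they were Grik4, Kcna5 and Sec61b, with r of 0.973 to 0.981. These coefficients describe 6 arrays in 2 groups that share the differences in blood lineage RNA, and with 17020 genes to choose from high values are easily found. None of the 3 nearest genes of any member was itself one of the 10 genes.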

How the data were processed

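Total RNA from 6 samples (300 ng each) was labelled with biotin and hybridised to Affymetrix arrays, per the labels' protocols. The deposited values are intensities on a linear scale for 35512 probe sets, with array medians of 82.4 to 90.5. How the authors summarised and normalised these intensities was not stated in any source used here, and the number of arrays limits the precision. GEO's platform annotation, with symbols updated to RefSeq through the gene number, gave 21789 probe sets of 1 gene, 1621 of several and 12102 not listed. 0 columns were left out.

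Values were taken as log2(intensity + 1). Dim probe sets (mean below 5.56, the lowest 25%) were left out, and the brightest probe set per gene was kept. Groups came from the sample titles. limma 3.58.1 (R 4.3.3) gave the two-sided test of mutant against control, with Benjamini-Hochberg adjustment over 17020 genes. Adjusted p-values of genes come from it. It was also run on simulated data with independent genes and the same SD in both groups. In the real data the SD was larger among controls for 71% of genes tested, so that run cannot show how the test behaves there. Each isoenzyme ratio had an exact permutation test over the 20 splits of the 6 arrays into 3 and 3. These p-values were adjusted by Benjamini-Hochberg over the 6 pairs.

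The 10 genes and 13 further lists (156 genes) were chosen with earlier results of these data known. Named were the 10 genes, up to 4 called genes per list with the largest change, Stk11, and the 3 nearest genes per member. Added after their values were seen were P3h1, Ppib, Pcolce2, Bmp1, Col2a1, Col10a1, Hspa5 and Pdia3. List genes with no tested probe set of 1 gene, among them Fkbp10, Adamts2, Eno1, Bglap, Spp1, Runx2 and 4 erythroid genes, were left out of the counts. Alternatives covered normalisation, filter, probe set choice, pseudocount, variance model, replicate block and each array left out.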

Additional observations from a re-analysis of the deposited data

How the results depend on the processing

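Of the 10 genes, Pcolce, P4hb and Serpinh1 kept their direction under all 17 alternatives and Plod3 did too; Pcolce was called in each, and P4hb in none. Quantile normalisation, median centring, both other filters, the mean of probe sets, the pseudocount and the intensity trend changed no call or direction of the 10 genes. Array weights, whose fit stopped before it converged, called 8006 genes (4406 higher, 3600 lower), 47% of all genes tested. Beside that share they called 5 of the 10, 3 higher and 2 lower. These were Pcolce, P4ha3 (0.76), Plod1 (0.19), Plod3 (-0.27) and Serpinh1 (-0.18). With array weights 8 modification genes, 7 export genes, 12 collagen chains, 10 hypoxia-induced genes and 7 folding genes were called, against 3, 2, 7, 3 and 4 without them. Median centring left 1 modification gene called, and the filter at the median 1 export gene and 6 hypoxia-induced genes, of which a pseudocount of 16 called 5 and an intensity trend 7. Without control replicates 2 and 3, 885 genes were called higher and 2 of the 10 genes were called, 1 of them lower (Plod3, -0.49), with 1 export, 1 hypoxia-induced and 1 folding gene; the sign turned for P4ha1 (-0.029), P4ha2 (-0.235), P4ha3 (-0.12), Plod1 (-0.074), Plod2 (-0.105) and Crtap (-0.056). Scaling each array to the 10 chondrocyte markers called 836 genes higher and 1 hypoxia-induced gene, and turned P4ha2 (-0.0038) and Plod2 (-0.027). Both settings were added with the data in view. Leaving out single arrays gave 936 to 3282 calls (512 to 1642 higher, 424 to 1640 lower), against 2496 with all. Of the 10 genes 1 to 2 were then called, 1 to 2 higher and 0 to 1 lower, with 1 to 3 modification genes, 0 to 2 export genes, 5 to 8 collagen chains, 0 to 6 hypoxia-induced genes and 0 to 5 folding genes. The differences then ran from 0.0084 to 0.14 for P4ha1, 0.053 to 0.29 for Crtap, 0.058 to 0.20 for Plod1 and -0.082 to -0.011 for P4hb, with the ends set by control replicates 1 and 3, and from -0.066 to 0.21 for P4ha2, 0.34 to 0.95 for P4ha3, -0.053 to 0.11 for Plod2 and -0.39 to -0.23 for Plod3, and P4ha2 and Plod2 turned without control replicate 3. The calls were fewest, 936, without mutant replicate 3. The labels do not say whether equal replicate numbers pair the samples. The deviations of same-numbered mutants and controls correlated at 0.08, 0.21 and -0.08. Mutant replicates 1 and 2 correlated best with the control of their own number, and mutant replicate 3 with control replicate 1 (0.11). Values this weak cannot decide whether the samples were paired. With the replicate block 2031 genes were called, Pcolce stayed called (adjusted p = 0.0156), and 1 modification gene and 2 folding genes were called. The cause of these shifts was not tested.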
